A study of Mus musculus with 6 samples.

Results

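The narrow peaks are the merged ATAC-seq peaks at most 350 bp wide, with the width taken as end minus start plus 1 from the position of each peak, and there were 364 of them among the 36097 peaks counted. The rule used width alone and no comparison of groups. The choice is still tied to read counts, since the peaks were called on reads of these same libraries. The median of the mean count was 22.8 in narrow peaks and 83 in all peaks. Their widths ran from 9 to 350 bp with a median of 316 bp, whereas the median width of all peaks was 902 bp. Of the narrow peaks, 19 were at most 100 bp wide, 32 were wider than that and up to 200 bp, 96 were above 200 and up to 300 bp, and 217 were above 300 bp.

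ATAC-seq was performed on nuclei sorted for PCM1, a protein that surrounds the nuclei of mature muscle fibres, from gastrocnemius and tibialis anterior (TA) muscles. Male C57BL/6J mice, 8 weeks old at injection, received AAV6:Yap-shRNA in the muscles of one limb and AAV6:LacZ-shRNA, the control hairpin against a bacterial gene, in those of the other. Muscles were taken 28 days later, and each of the 3 Yap-shRNA and 3 LacZ-shRNA replicates pooled 4 gastrocnemius and 4 TA muscles. The sample labels name skeletal muscle, while the short design text of the series speaks of cardiomyocytes. Counts in peaks totalled between 2588520 and 6871176 per library, and LacZ-shRNA replicates 2 and 1 were the shallowest of the 6 libraries while LacZ-shRNA replicate 3 was the deepest. The windows at transcript starts of all 8 muscle fibre markers lay above the median window of 10.2 CPM, the counts scaled to library size, with a mean of 198 CPM per gene. Markers of other cell types were not absent, since 6 of 6 leukocyte, 5 of 6 fibroblast, 5 of 5 endothelial and 4 of 4 satellite cell windows also lay above that median, and their part in the results was not tested. The means were 32.5 CPM for fibroblast, 30.5 for satellite cell, 29.3 for endothelial and 18.3 for leukocyte markers. Summed marker levels of LacZ-shRNA and Yap-shRNA libraries overlapped for each of these 5 lists, least for leukocyte markers, at 101 to 112 CPM in LacZ-shRNA and 112 to 117 CPM in Yap-shRNA. The window at Yap1 held 12.1 to 16.7 CPM in LacZ-shRNA and 12.1 to 16.5 CPM in Yap-shRNA, which checks no label, since a hairpin acts on RNA. The labels number the pools and do not say which animals each held, so p-values measure the spread between these libraries.

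In ATAC-seq a transposase cuts DNA that is not tightly wrapped on nucleosomes, and a peak caller joins places where such cuts pile up. Active promoters often give wide peaks that span the nucleosome-free start and its flanks, whereas a short peak can be a small regulatory element, the edge of a larger one, or a place where few reads are enough to pass the caller. Yap, a transcriptional coactivator restrained by the Hippo pathway, has no DNA-binding domain of its own and reaches DNA through TEAD factors, often at elements far from promoters.

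A feature of the DNA recurs in the results, an unbroken run of a single base, G or C, called a long run where it has 15 bases or more. The runs of the 10 narrow peaks that passed the test between groups are shown first, with 1 that holds a long run and did not pass, each as the plus strand of build GRCm38 from RefSeq with 20 bases to either side and the run in capitals.
Tyw1 exon, chr5:130258707-130258782: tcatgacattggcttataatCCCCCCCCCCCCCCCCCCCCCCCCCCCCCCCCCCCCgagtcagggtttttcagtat
Ppm1h intron, chr10:122866658-122866730: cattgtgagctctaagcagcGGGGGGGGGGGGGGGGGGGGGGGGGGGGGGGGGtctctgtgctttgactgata
upstream of Awat2, chrX:100443350-100443422: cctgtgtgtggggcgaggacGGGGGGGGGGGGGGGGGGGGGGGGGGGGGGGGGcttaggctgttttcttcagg
Upk3bl intron, chr5:136063470-136063535: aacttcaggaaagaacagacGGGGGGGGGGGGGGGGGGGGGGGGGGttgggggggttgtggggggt
Clcn5 intron, chrX:7306833-7306896: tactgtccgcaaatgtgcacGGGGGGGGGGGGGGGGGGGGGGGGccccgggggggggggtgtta
near Gm48292, chr9:53745485-53745551: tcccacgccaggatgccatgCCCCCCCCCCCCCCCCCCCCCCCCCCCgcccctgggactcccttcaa
intergenic, nearest start Rabl2, chr15:89650814-89650876: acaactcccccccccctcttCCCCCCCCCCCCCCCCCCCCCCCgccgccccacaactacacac
Defb42 intron, chr14:63050322-63050377: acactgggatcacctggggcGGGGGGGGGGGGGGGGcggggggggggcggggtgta
Aox4 intron, chr1:58236213-58236277: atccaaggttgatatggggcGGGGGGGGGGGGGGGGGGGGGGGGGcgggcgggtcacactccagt
4930429D17Rik intron, chr5:103258040-103258109: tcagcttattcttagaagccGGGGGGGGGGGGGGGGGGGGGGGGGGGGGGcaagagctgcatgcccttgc
intergenic, nearest start Psip1, not called, chr4:83488340-83488408: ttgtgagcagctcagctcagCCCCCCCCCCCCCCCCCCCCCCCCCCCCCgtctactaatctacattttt

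The whole Ppm1h peak, also on the plus strand, shows how such a run sits within 235 bp.
whole Ppm1h peak, chr10:122866576-122866810: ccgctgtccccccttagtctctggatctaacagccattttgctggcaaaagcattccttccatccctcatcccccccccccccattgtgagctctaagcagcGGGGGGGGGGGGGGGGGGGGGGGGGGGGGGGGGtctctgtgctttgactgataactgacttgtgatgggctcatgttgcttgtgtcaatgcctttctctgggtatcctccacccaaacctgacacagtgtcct

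Among 13 of the 14 narrow peaks with a long run, 7 runs were of G and 6 of C on the plus strand. The peak in Gnal, with a run of 27 bases, is left out of these counts and of the distances that follow. The middle of the run lay 1 to 59 bp from the middle of the peak, with a median of 36.5 bp.

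For comparison, the narrow peak with the highest level among those of at least 200 bp without a long run lies in an intron of Fgf14, a fibroblast growth factor homologue that stays inside the cell and binds sodium channels. Its central 300 bases on the plus strand hold alternating bases in place of a single-base run. It was singled out after its values were seen.
Fgf14 intron, chr14:124023760-124024059: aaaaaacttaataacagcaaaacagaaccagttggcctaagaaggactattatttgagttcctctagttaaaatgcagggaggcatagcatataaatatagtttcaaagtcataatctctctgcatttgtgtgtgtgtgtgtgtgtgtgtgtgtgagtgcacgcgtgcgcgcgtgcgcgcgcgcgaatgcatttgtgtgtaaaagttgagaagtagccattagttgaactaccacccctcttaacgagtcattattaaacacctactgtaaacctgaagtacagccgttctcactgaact

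The peaks in the next lines hold a motif, in capitals, in their central 200 bp. They show what a match looks like in the narrow peaks of highest level that carry one.
MEF2 motif, intergenic near Mgst1, chr6:138128963-138129012: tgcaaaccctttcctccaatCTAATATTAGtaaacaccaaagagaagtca
CTCF motif, Sel1l2 intron, match on the minus strand, chr2:140249906-140249957: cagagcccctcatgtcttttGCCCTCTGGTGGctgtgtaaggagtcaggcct
E-box, 4931406P16Rik intron, chr7:34277832-34277877: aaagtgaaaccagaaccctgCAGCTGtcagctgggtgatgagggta
AP-1 motif, 4930429D17Rik intron, chr5:103258157-103258203: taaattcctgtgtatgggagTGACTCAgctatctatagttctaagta

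Most narrow peaks lay away from promoters. A peak within 1 kb of an annotated transcript start was called a promoter peak, another peak that overlaps a gene was called genic, and the rest were called intergenic. By this scheme 62 narrow peaks (17.03%) were at promoters, 123 (33.8%) were genic and 179 (49.2%) were intergenic. Among all peaks promoters made up 35.3% and intergenic peaks 32.2%. The peaks next in width, the 3045 above the limit and up to 500 bp, had 12.3% at promoters and 48.0% intergenic, so the low share of promoters extended past the limit. A transcript start lay inside 22 narrow peaks (6.04%), against 30.7% of all peaks, and the median distance to the nearest start was 13.4 kb against 5.92 kb.

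The shortest members had another makeup than those near the limit. Of the 19 peaks of at most 100 bp, 10 were at promoters (52.6%), and the share was 28.1% in those up to 200 bp, 22.9% in those up to 300 bp and 9.68% in the rest. Another peak lay within 1 kb of 6 of those 19 (31.6%) and of 15 of the 32 peaks up to 200 bp (46.9%), but of only 8 of the 217 peaks above 300 bp (3.69%). Over all narrow peaks 42 had such a neighbour (11.5%), compared with 3.15% of peaks next above the limit and 4.48% of all peaks. The largest group, above 300 bp, therefore stood mostly alone, with a median gap of 32.8 kb to the nearest peak.

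**Figure D1:**
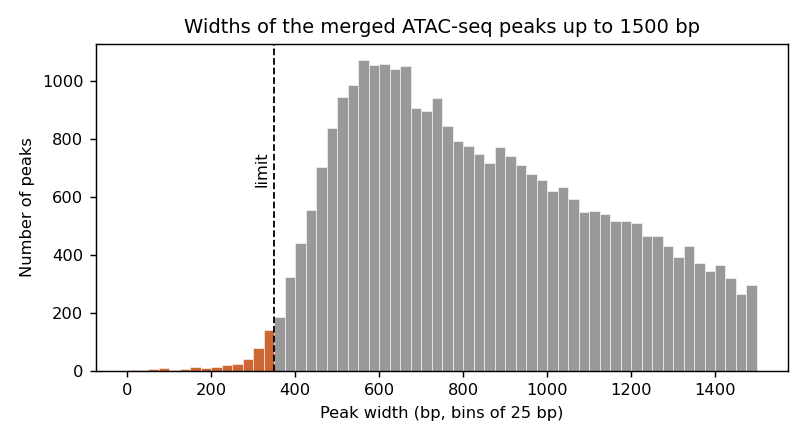
Number of peaks (vertical axis) by peak width in bins of 25 bp (horizontal axis), with narrow peaks in orange, wider peaks in grey and the limit of 350 bp as a dashed line. The fullest narrow bin, next to the limit, holds 140 peaks, and the limit cuts the rising side of a distribution whose median is 902 bp.

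Repeats were common in the narrow peaks. In the reference, repeats and low-complexity DNA are masked, and the median narrow peak was masked over 58.0% of its bases, against 14.1% for all peaks and 63.6% for peaks above the limit and up to 500 bp. More than 50% of the bases were masked in 193 of the 363 narrow peaks with sequence (53.2%), and 80 were masked throughout. Masking followed position, since 72.5% of intergenic narrow peaks but 12.9% of those at promoters were masked over more than 50% of their bases. Repetition of short sequence was described with words of 32 bases. The libraries were sequenced in pairs of reads longer than that, so a recurring word does not by itself leave a read without a unique place. In the median narrow peak 37.8% of these words occurred more than once in the reference, compared with 50.2% in the peaks next in width. Copies on either strand and inside the same peak were counted. No word recurred in 105 narrow peaks (29.1% of 361 that could be read), and over 50% of words recurred in 162 (44.9%). The methods state a minimum mapping quality for reads counted over genes and do not say whether it also held for peaks, so counts in the repeated members are uncertain.

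**Figure D2:**
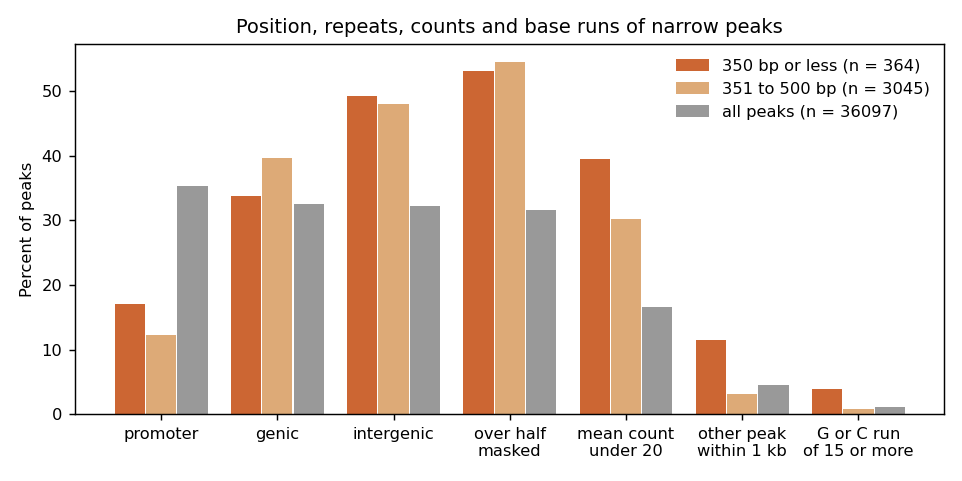
Percent of peaks (vertical axis) in each class, for narrow peaks, peaks above the limit and up to 500 bp, and all peaks. Narrow peaks resemble those up to 500 bp in masking (53.2% and 54.5%) and intergenic share, and have the highest shares with a mean count under 20 (39.6%), with another peak within 1 kb (11.5%) and with a long run (3.86%). Masking and runs are shares of peaks with sequence.

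Few reads lay in most narrow peaks. The mean count over the 6 libraries had a median of 22.8 per narrow peak against 83 for all peaks, and 144 of the 364 (39.6%) had a mean under 20. No narrow peak was at 0 in any library, and the lowest count in a library ranged from 1 to 7. Per length, the median level was 17.3 CPM per kb in narrow peaks, compared with 13.3 in the peaks next in width and 20.1 for all peaks. In peaks of at most 100 bp the median was 37.1 CPM per kb at a level of only 2.56 CPM. A level per kb divides by the width that chose the peaks, and no counted peak has a mean count under 10. A very short peak therefore has a high level per kb even at few counts. These 19 had mean counts from 10 to 19.8. The shortest narrow peak, 9 bp at chr19:5490108-5490116 and 339 bp from a start of Cfl1, which encodes the actin-severing protein cofilin, reached 209 CPM per kb with a mean count of 10 per library.

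Of the 5 narrow peaks with the highest level per length, 4 hold a long run. By the rule for named peaks the 5 highest were those in Tyw1 (1556 CPM per kb), in Ppm1h (364), upstream of Awat2 (295), in Upk3bl (274) and the 9-bp peak near Cfl1 (209). The next was a peak in Clcn5 at 208 CPM per kb, a peak named after its value was seen. All but the 9-bp peak, which ranks here at the lowest mean count of 10, hold a run of 24 bases or more. The Fgf14 peak, shown above for its sequence, had 102 CPM per kb. Over the 14 narrow peaks with a long run the median was 109 CPM per kb, against 17.1 in the 350 without.

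Between groups, 10 narrow peaks were lower in Yap-shRNA and 0 were higher, by edgeR's quasi-likelihood test at an adjusted p under 0.05 over all 36097 peaks. Lower calls were 0.571% of all peaks and higher calls were 0.0471%, against 2.75% lower among narrow peaks. The split among wider peaks, 196 lower and 17 higher, turned to 96 lower and 124 higher when counts were scaled by library size alone, a scaling that shifted the log2 fold change of the median peak to 0.14, while narrow peaks then had 9 lower and 0 higher. All 10 are among the 14 narrow peaks with a long run. Of the 350 narrow peaks without such a run, the same test called 0, and DESeq2 also called 0, although it left 346 of the 364 narrow peaks without an adjusted p. The likelihood-ratio test called 1 of these 350, and the quasi-likelihood test called 5 when LacZ-shRNA replicate 3 was left out. At an unadjusted p under 0.05 these 350 had 16 lower (4.57%) and 2 higher (0.571%), while 5.31% of all peaks were lower and 3.59% higher at that level. Over all 364 narrow peaks these counts were 28 lower (7.69%) and 2 higher (0.549%). They moved with the control libraries, to 63 lower and 1 higher without LacZ-shRNA replicate 3, 25 and 10 without LacZ-shRNA replicate 2, and 25 and 7 without LacZ-shRNA replicate 1. With library size alone they were 24 lower and 9 higher. Shares at this unadjusted level varied with the mean count of a peak. At mean counts of 10 to 20, 2.78% of narrow and 1.51% of wider peaks were lower, and 0% and 0.805% were higher. At 20 to 50, 5.5% of narrow and 2.98% of wider peaks were lower, and 1% and 1.66% were higher. Of the 200 narrow peaks in the latter band, 1 holds a long run.

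The largest change in a narrow peak was upstream of Awat2, an acyltransferase that makes wax esters, at chrX:100443287-100443571, 570 bp from the transcript start. It held 116, 123 and 123 CPM in LacZ-shRNA replicates 1, 2 and 3, and 34.8, 50.7 and 57.2 CPM in Yap-shRNA. The control libraries lay close together and well above every Yap-shRNA library, and the lowest value was that of Yap-shRNA replicate 1. The log2 fold change was -1.34 (edgeR adjusted p 6.25e-08, SE 0.14).

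The peak in an exon of Tyw1, whose product helps build a modified base of phenylalanine tRNA, overlaps the gene's transcript start at chr5:130258626-130258943. It held 818, 665 and 643 CPM in LacZ-shRNA and 181, 315 and 348 CPM in Yap-shRNA, the highest counts of any narrow peak. The groups were apart, and Yap-shRNA replicate 1 was again the lowest. It fell by 1.33 on the log2 scale (edgeR adjusted p 3.84e-05, SE 0.20), and 25.1% of its 32-base words occur more than once in the reference.

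An intron of Ppm1h, a protein phosphatase of the PP2C family, holds the third of these peaks at chr10:122866576-122866810, 28.6 kb from the nearest start. Its levels were 116, 129 and 114 CPM in LacZ-shRNA and 35.1, 57.1 and 61.7 CPM in Yap-shRNA. The groups did not overlap and the order within Yap-shRNA was that of the Tyw1 and Awat2 peaks. The log2 fold change was -1.22 (edgeR adjusted p 7.00e-07, SE 0.14).

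Next to Gm48292, an annotated transcript without an assigned role, a peak at chr9:53745297-53745640 held 55.9, 56.5 and 43.8 CPM in LacZ-shRNA and 20.9, 19.3 and 29.4 CPM in Yap-shRNA. The lowest control was LacZ-shRNA replicate 3, still above all Yap-shRNA libraries. Its log2 fold change was -1.15 (edgeR adjusted p 2.57e-06, SE 0.15).

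The peak in an intron of 4930429D17Rik at chr5:103257970-103258297 held 35.6, 43.7 and 32.7 CPM in LacZ-shRNA and 12.8, 20.2 and 21.0 CPM in Yap-shRNA, with the groups apart. It is masked over 83.8% of its bases, and 54.2% of its 32-base words occur more than once in the reference. The log2 fold change was -1.03 (edgeR adjusted p 0.000109, SE 0.16).

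The other calls were smaller. An intergenic peak at chr15:89650710-89650988, 58.8 kb from the nearest start, that of the small GTPase gene Rabl2, had 47.6, 49.3 and 39.3 CPM in LacZ-shRNA and 21.9, 24.9 and 29.4 CPM in Yap-shRNA, a log2 fold change of -0.82 (SE 0.14). None of its 32-base words recurs in the genome. In an intron of Upk3bl, a uroplakin-like gene, the peak at chr5:136063390-136063670 had 96.9, 124 and 74.4 CPM in LacZ-shRNA against 53.1, 46.8 and 66.7 CPM in Yap-shRNA, a log2 fold change of -0.80 (SE 0.14). A peak in an intron of the beta-defensin gene Defb42, 231 bp from a start of Defb30, at chr14:63050191-63050514, had 40.5, 48.8 and 26.5 CPM in LacZ-shRNA against 18.6, 17.5 and 25.5 CPM in Yap-shRNA, a log2 fold change of -0.86 (SE 0.17). In these 3 peaks LacZ-shRNA replicate 3 was the lowest control and Yap-shRNA replicate 3 the highest of its group, and they nearly met at Defb42. The edgeR adjusted p-values were 0.000424 for the intergenic peak, 0.00108 at Upk3bl and 0.00378 at Defb42.

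With all libraries thinned to the shallowest, a setting chosen after seeing the data, these 3 peaks had edgeR adjusted p-values of 0.141, 0.135 and 0.189 at log2 fold changes of -0.79, -0.74 and -0.86. Leaving out LacZ-shRNA replicate 1, LacZ-shRNA replicate 2 or Yap-shRNA replicate 1 also ended the call of the Defb42 peak, at edgeR adjusted p-values of 0.0582, 0.0585 and 0.0524, as did an offset on abundance, at 0.0598. The 5 peaks upstream of Awat2, in Ppm1h, next to Gm48292, in Tyw1 and in 4930429D17Rik kept their calls under each alternative run for them, other than the one that leaves out peaks with a run.

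The remaining 2 called peaks fall outside the rule for named peaks and are given because the count turns on them. In an intron of Clcn5, an endosomal chloride and proton exchanger, the peak at chrX:7306751-7307057 had 67.6, 95.5 and 73.4 CPM in LacZ-shRNA and 43.8, 43.2 and 59.7 CPM in Yap-shRNA, with a log2 fold change of -0.67 (edgeR adjusted p 0.00533, SE 0.14). In an intron of Aox4, an aldehyde oxidase, the peak at chr1:58236100-58236363 had 38.3, 45.0 and 26.8 CPM against 18.6, 17.5 and 26.6 CPM, with a log2 fold change of -0.77 (edgeR adjusted p 0.0114, SE 0.17). Both pairs of groups were apart, but at Aox4 LacZ-shRNA replicate 3 and Yap-shRNA replicate 3 almost met. Leaving out LacZ-shRNA replicate 2, Yap-shRNA replicate 1 or Yap-shRNA replicate 2 ended both calls, at edgeR adjusted p-values from 0.0784 to 0.0987 at Clcn5 and from 0.107 to 0.110 at Aox4. The Aox4 call was also lost without LacZ-shRNA replicate 1 (edgeR adjusted p 0.0977) and under the abundance offset (0.0865), the Clcn5 call with library size alone (0.0557), and both when thinned (0.495 at Aox4 and 0.147 at Clcn5).

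**Figure D3:**
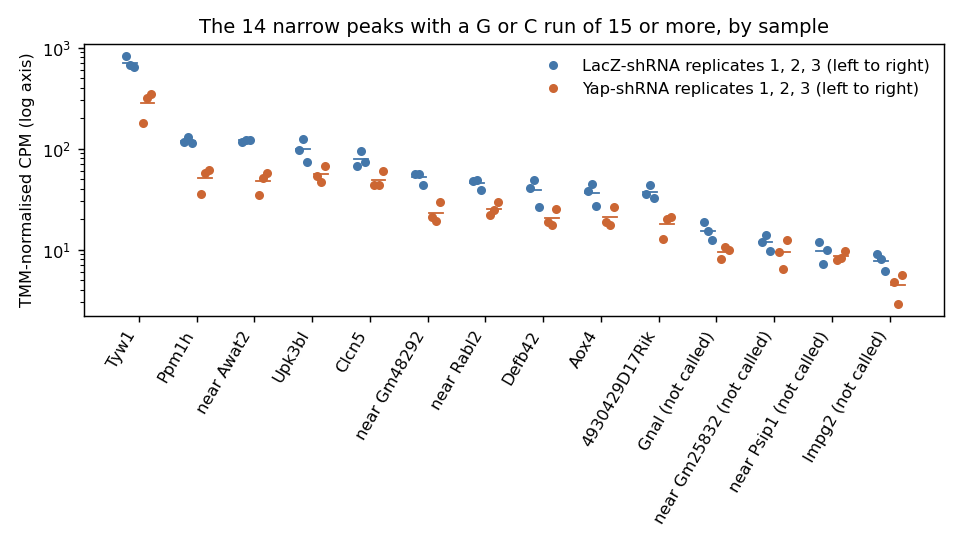
TMM-normalised CPM on a log axis (vertical) for the 14 narrow peaks with a long run (horizontal, by gene or nearest transcript start), with points for LacZ-shRNA (blue) and Yap-shRNA (orange) replicates and bars for group means. All control points lie above all Yap-shRNA points in 12 of the 14, and Yap-shRNA replicate 3 was the lowest of the 6 libraries in 0 of them.

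Of the 4 members with a run and no call, chosen here after their values were seen, all had negative log2 fold changes and fewer reads, with mean counts from 30.3 to 63.3. The peak in Gnal, a G protein alpha subunit of olfactory neurons and striatum, had 18.6, 15.3 and 12.4 CPM in LacZ-shRNA and 8.06, 10.6 and 9.92 CPM in Yap-shRNA, with a log2 fold change of -0.67 (edgeR adjusted p 0.181, SE 0.21). The peak in Impg2, a proteoglycan of the photoreceptor matrix, had 9.04, 8.07 and 6.19 CPM against 4.75, 2.92 and 5.62 CPM (log2 fold change -0.78, edgeR adjusted p 0.383, SE 0.31). In both of these the groups were apart. The peak nearest to Psip1, a chromatin-binding coactivator, has a run of 29 bases, and its groups overlapped at 11.8, 7.22 and 9.87 CPM against 7.92, 8.20 and 9.76 CPM, with a log2 fold change of -0.19 (SE 0.24). A run of this length was thus not always accompanied by a called difference, although at a mean count of 50 its SE was among the 3 highest of the 14. The peak nearest to Gm25832, with a run of 17, had a log2 fold change of -0.30 (SE 0.24).

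Over the 14 members the libraries kept a partial order. LacZ-shRNA replicate 2 was the highest of the 6 in 9, LacZ-shRNA replicate 1 in 4 and LacZ-shRNA replicate 3 in 1. The lowest was Yap-shRNA replicate 2 in 7, Yap-shRNA replicate 1 in 6 and LacZ-shRNA replicate 2 in 1. Among the controls, LacZ-shRNA replicate 3, the deepest library, was the lowest in 11 of 14.

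The size of the difference moved with the length of the run. The median log2 fold change was -0.58 over the 2 narrow peaks with runs of 15 to 19 bases, -0.77 over the 8 with 20 to 29 and -1.28 over the 4 with at least 30. All 4 of the last were called. Wider peaks showed the same order, with medians of -0.06 over 282 peaks, -0.33 over 73 and -1.07 over 36, of which 32 were called lower. Long runs and the lower values in Yap-shRNA were therefore not limited to narrow peaks. Narrow peaks held such runs in 3.86% of cases and wider peaks in 1.10%. Only 2 narrow peaks had runs of 10 to 14 bases, with a median log2 fold change of -0.45 and 0 calls, and the 347 with shorter or no runs had a median of -0.07. Levels differed with run length too. For runs of 15 to 19, 20 to 29 and at least 30 bases, the median level was 20.1, 32.1 and 84.8 CPM in narrow peaks. In wider peaks it was 40.0, 35.5 and 170 CPM. The part of base runs in these counts was not tested, and neither was that of level.

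**Figure D4:**
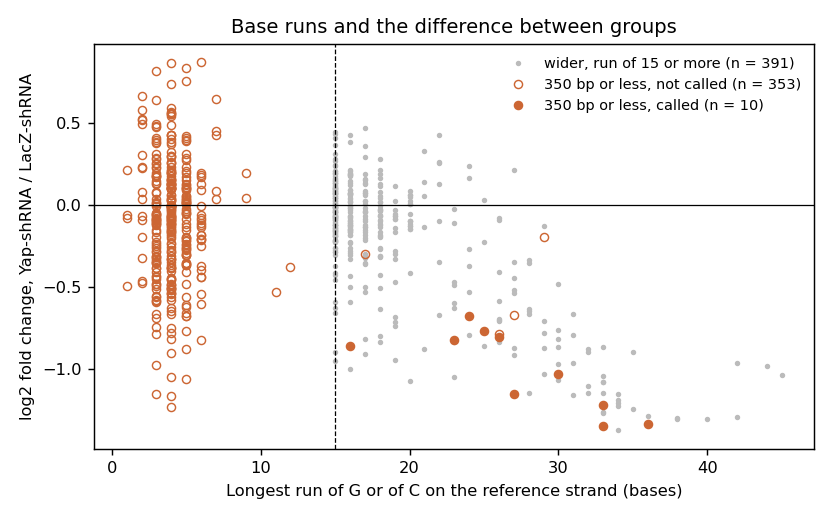
log2 fold change of Yap-shRNA over LacZ-shRNA (vertical) against the longest run of G or of C in the peak in bases (horizontal), for narrow peaks (orange, filled where called) and wider peaks with a long run (grey). The 10 called narrow peaks lie right of the dashed line at 15 bases, and the 4 with at least 30 bases lie between -1.03 and -1.34.

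Groups that did not overlap were also counted. All LacZ-shRNA libraries lay above all Yap-shRNA libraries in 35 narrow peaks (9.62%), 12 of them with a long run, while 6.76% of all peaks did so. Without the run the count was 23 of 350 (6.57%). All Yap-shRNA libraries lay above all LacZ-shRNA libraries in 10 narrow peaks (2.75%), against 6.55% of all peaks. These shares varied with counts too. At mean counts of 20 to 50, LacZ-shRNA lay above in 10% of narrow and 5.24% of wider peaks, and at 10 to 20 in 2.08% and 3.94%. Yap-shRNA lay above in 3% of narrow and 4.67% of wider peaks at 20 to 50, and in 2.78% and 3.30% at 10 to 20.

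Among narrow peaks higher in Yap-shRNA none was called, and the rule names the 3 with the smallest p. In an intron of Epb41l3, a membrane skeleton protein, the peak at chr17:69237084-69237363 had 5.48, 3.82 and 3.68 CPM in LacZ-shRNA and 9.64, 6.67 and 6.62 CPM in Yap-shRNA. The groups were apart, and the log2 fold change was 0.84 (edgeR adjusted p 0.313, SE 0.31). The peak in Lypd6b, a gene of the LY6 family, at chr2:49795737-49796079 is masked throughout and had 4.93, 4.67 and 4.57 CPM against 6.33, 7.09 and 7.77 CPM, with a log2 fold change of 0.58 (SE 0.30). The peak in an exon of Gm11789 at chr11:120528035-120528381 overlapped between groups and had a log2 fold change of 0.73 (SE 0.34). These peaks had mean counts from 29.8 to 34.8, and the adjusted p of each missed the threshold.

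The error of a difference varied with the counts. The median SE of a log2 fold change was 0.36 in the 350 narrow peaks without a run and 0.16 in the 14 with one. Only 2 of those 350 had a mean count of at least 100, against 10 of the 14. Within the band of 20 to 50 mean counts, 0 of 200 narrow peaks and 4 of 5914 wider peaks were called (0.0676%), and the median SE was 0.31 in both. Within the band of at least 200, which holds 5 narrow peaks, all 5 were called, all with runs, compared with 1.63% of 6938 wider peaks. Only 3.29% of those wider peaks hold a long run, so these sets differ in more than width. In the band of 50 to 200, 5 of 15 narrow peaks were called and 8 hold a long run. Among the 17041 wider peaks there, 0.563% were called and 0.894% hold one.

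The median log2 fold change of narrow peaks was -0.08, beside -0.0026 over all peaks. Without LacZ-shRNA replicate 1 the median was 0.02, and without LacZ-shRNA replicate 3 it was -0.22. Narrow peaks as a group stood highest in LacZ-shRNA replicate 1, at a median deviation of 0.26 (log2) from each peak's own mean, and lowest in LacZ-shRNA replicate 3 at -0.12, while the Yap-shRNA libraries lay between -0.06 and -0.02. Replicates 1 and 2 of LacZ-shRNA were also the shallowest libraries and replicate 3 the deepest. With all libraries thinned to the shallowest the median was -0.14 and 5 narrow peaks were called. By class the median was 0.002 at promoters, -0.05 in genes and -0.16 between genes, and it was -0.15 in peaks masked over more than 50% of their bases.

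Narrow peaks took a small share of each library. It was 0.327%, 0.295% and 0.268% of peak counts in LacZ-shRNA replicates 1 to 3 and 0.216%, 0.240% and 0.242% in Yap-shRNA, a mean of 0.297 ± 0.030% against 0.233 ± 0.015% (SD, n = 3 per group). The groups were apart. The 14 members with a run made up 43.4%, 43.9% and 45.6% of the narrow counts in LacZ-shRNA and 23.1%, 28.6% and 32.3% in Yap-shRNA. Without them the share of peak counts was 0.165 ± 0.020% in LacZ-shRNA and 0.167 ± 0.0038% in Yap-shRNA, and the groups overlapped. The 14 were uneven in counts. The Tyw1 peak had a mean count of 2424, against a median of 160 over the 14, so it weighs heavily in their share.

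**Figure D5:**
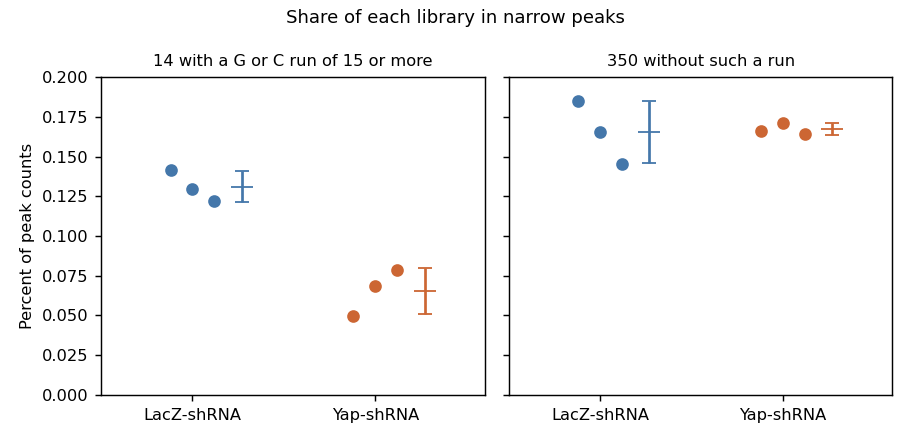
Percent of each library's peak counts (vertical axis) in the 14 narrow peaks with a long run (left) and in the 350 without (right), by group, with points for replicates 1, 2 and 3 from left to right and bars for the mean ± SD. On the left the groups are apart (0.122 to 0.142% against 0.0497 to 0.0784%), and on the right they overlap.

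Regulatory motifs were counted in the central 200 bp of each peak on both strands, so that every window has the same length, and windows of shorter peaks reach past their edges. The motif of TEAD factors, which carry Yap to DNA (ACATTCC), was in 5 of 363 narrow peaks (1.38%, exact 95% interval 0.449 to 3.19) and in 1.45% of all peaks. The AP-1 motif (TGACTCA or TGAGTCA) was in 1.65% against 2.62%, and the myogenic E-box (CAGCTG) in 10.5% (7.52 to 14.1) against 12.4%. For MEF2, a muscle activator, the shares were 1.38% and 0.800%, for CTCF, the factor that anchors chromatin loops, 0.551% and 0.781%, and for the glucocorticoid receptor 0.275% and 0.725%. In each of these 6 the narrow interval holds the share of all peaks.

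Among the other motifs, that of ETS factors (CCGGAAGT), common at strong promoters, was in 0 of 363 narrow peaks, a count that allows a share of up to 0.826%, and in 1.45% of all peaks. Away from promoters it was in 0 of 301 narrow peaks, which allows up to 0.997%, and in 0.142% of all peaks there, and at promoters in 0 of 62, which allows up to 4.84%, against 3.85% of all promoter peaks. A lower share could be seen in neither class. The CRE (TGACGTCA) was in 0 narrow peaks and 0.525% of all peaks, within the same limit. NRF1 was in 0.551% of narrow peaks against 1.58%, NF1 in 0 against 0.0139%, the YY1 motif (AAGATGGCG) in 2.48% against 4.30%, and RUNX (TGTGGTT) in 1.93% against 1.97%. ERR (TCAAGGTCA) and the MEF3 site (TCAGGTTTC) were each in 2 narrow peaks (0.551%), against 0.208% and 0.322%. Limits and intervals cover counting error only, and none of the motifs spelled out here contains another.

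The strongest narrow peak with each of the main motifs did not differ detectably between groups, other than the AP-1 one, which is the called peak in 4930429D17Rik. That peak also holds a G run of 30 bases, while the longest run in the TEAD, MEF2, CTCF and E-box peaks was 4 to 5 bases. The part of the AP-1 motif was not tested. The TEAD peak lies over a start of Il17re, a receptor chain of the interleukin family, at chr6:113458612-113458891, and had 7.39, 9.34 and 5.30 CPM in LacZ-shRNA and 5.61, 7.78 and 8.10 CPM in Yap-shRNA (log2 fold change 0.04, SE 0.28). Its sign turned when single libraries were left out. The MEF2 peak, 11.1 kb from Mgst1, had a log2 fold change of 0.03 (SE 0.25), the CTCF peak in Sel1l2 -0.26 (SE 0.27) and the E-box peak in 4931406P16Rik 0.15 (SE 0.23).

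Of 6 gene lists, most of them of muscle biology, taken with peaks in a gene or within 10 kb of its starts, 2 had 1 narrow peak each and 4 had 0, although the lists had from 18 to 67 peaks of any width. Among 24 muscle fibre genes (62 peaks) the narrow one is in an intron of Dmd, the gene of dystrophin, at chrX:82955865-82956213, with 7.94, 5.10 and 7.07 CPM in LacZ-shRNA and 7.48, 6.81 and 6.78 CPM in Yap-shRNA. Among 23 genes of fatty acid oxidation and the TCA cycle (59 peaks) it is in an intron of Idh3a, a subunit of mitochondrial isocitrate dehydrogenase, at chr9:54594509-54594625, with 1.64, 2.97 and 3.54 CPM against 2.59, 2.36 and 2.98 CPM. Both overlapped between groups, with log2 fold changes of 0.03 (SE 0.27) and -0.09 (SE 0.41). The lists of 16 myogenic and fibre-type factors, 9 genes the study named at enhancers, 19 Yap and Tead genes and targets and 10 chromatin looping genes had 0 narrow peaks among 67, 32, 58 and 18. The study chose the enhancer genes on these samples. Narrow peaks were 1.61% and 1.69% of the peaks of the lists that held one, beside 1.01% of all peaks, so these small counts set no list apart.

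Levels and log2 fold changes overlapped across the limit. The 7 peaks of exactly 350 bp had levels from 1.82 to 8.07 CPM and log2 fold changes from -0.39 to 0.65, and the 6 that are 1 bp wider had 2.47 to 6.00 CPM and -0.78 to 0.42. More than 50% of the bases were masked in 4 of the 7 and 5 of the 6, and 1 and 3 were genic.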

How the data were processed

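The 6 ATAC-seq libraries were sequenced in pairs of reads on a NovaSeq instrument. The authors mapped reads to GRCm38 with BWA, removed duplicates, called peaks with MACS, merged those detected in at least 2 samples and counted reads per peak. The submitters' processing notes name BWA 0.7.17, SAMtools 1.8, MACS 1.4.2-1 and featureCounts 1.5.0. The deposited values are whole-number read counts, not normalized, with the lowest row mean at 10. The methods require a mapping quality of at least 10 for reads over genes, and whether this held for peaks is not given in the sources used here, nor is how the edges of merged peaks were set. Summits were not used, so the middle of a peak is its midpoint.

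Counts were compared with edgeR 4.0.16 in R 4.3.3 (quasi-likelihood test, TMM factors, no covariate, Benjamini-Hochberg over 36097 peaks, threshold 0.05), tested on simulated data beforehand. The fold change is Yap-shRNA over LacZ-shRNA. The SE was taken as the size of the log2 fold change over the root of the F statistic. CPM are counts scaled to TMM-normalised library sizes. Positions came from GENCODE vM21 and sequence from RefSeq, both of GRCm38, and 115 peaks on unplaced scaffolds, 1 of them narrow, had no sequence features. Masked bases are those in lower case in RefSeq. Motif intervals are exact binomial (95%), and a count of 0 was given the limit of 3 counts.

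Named peaks are, among narrow peaks, the 8 with the smallest p among those called in a direction (or the 3 with the smallest p where fewer than 3 were called), the 5 with the highest CPM per kb, the one with the highest CPM for each of CTCF, TEAD, MEF2, AP-1 and E-box, and the one with the smallest p for each gene list. The members, lists and motifs were chosen with earlier results of these data known. An exact permutation test of the share of counts had been planned and is not given, since a score over chosen members takes no p. A long run has at least 15 bases. Alternatives included DESeq2 1.42.0, the likelihood-ratio test, other scalings and filters, a replicate block, other width limits and leaving out each library.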

Additional observations from a re-analysis of the deposited data

How the results depend on the processing

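The count of 10 narrow peaks called became 0 without peaks that have a long run, 5 with a width of at most 300 bp, 5 with libraries thinned to the shallowest and 6 with LacZ-shRNA replicate 3 as the only control, these last 2 chosen after seeing the data. In the latter the spread came from the 3 Yap-shRNA libraries and the lone control was assumed to vary like them, so its values are a description and no test of stability. In it 14 narrow peaks were lower and 23 higher at an unadjusted p under 0.05. It ran from 8 to 11 under the likelihood-ratio test, DESeq2, library size alone, a mean count of at least 20 and offsets on abundance or GC content, and from 7 to 15 without single libraries, 7 when either LacZ-shRNA replicate 2 or Yap-shRNA replicate 1 was left out and 15, of which 10 hold a long run, when LacZ-shRNA replicate 3 was. The 213 wider peaks called (196 lower, 17 higher) were 96 lower and 124 higher with library size alone, and numbered 108 by DESeq2, 367 by the likelihood-ratio test, 136 under the abundance offset, 105 without peaks with a run, 94 at an adjusted p under 0.01, 54 when thinned, and 86 to 432 without single libraries.

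The median log2 fold change of narrow peaks, -0.08, was 0.14 with LacZ-shRNA replicate 3 as the only control, 0.05 with library size alone, which moved the median of all peaks to 0.14, and -0.22 to 0.02 without single libraries. The difference in the share of counts, -0.064 percentage points, was -0.016 at a width of at most 300 bp, -0.0050 without peaks with a run, and -0.078 to -0.049 without single libraries. Where each library's total kept the peaks with a run, the share without them was 0.165% in LacZ-shRNA and 0.167% in Yap-shRNA. The sign of this small difference was therefore not stable. Among named peaks without a call, the sign of the log2 fold change turned for 5. With library size alone it was 0.043 at the 9-bp peak near Cfl1 and 0.034 at Idh3a, with LacZ-shRNA replicate 3 as the only control 0.012 near Cfl1 and -0.0082 at Dmd, and when thinned -0.058 at Il17re. Without single libraries it ran from -0.37 to 0.14 near Cfl1, -0.35 to 0.27 at Idh3a, -0.20 to 0.21 at Il17re, -0.080 to 0.13 at Dmd and -0.15 to 0.14 near Mgst1. Of 42 motif shares under other settings 3 left their interval.

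With a replicate block 10 narrow peaks were called and their median log2 fold change was -0.10. The numbers were not taken to pair the libraries, since the correlations of same-numbered libraries were 0.02, -0.09 and -0.14 and the labels tie no number to animals. Counts of different libraries of a group differed beyond sampling noise in every pair. With a median count of 11 to 28.5 per narrow peak and library, the median SE of the log2 fold change was 0.36 in those without a run.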

Other observations

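Of the narrow peaks, 5 lie on the Y chromosome. All 5 had lower levels in Yap-shRNA, with log2 fold changes from -1.15 to -0.35 and none called by edgeR's quasi-likelihood test. Between 50.2% and 100% of their 32-base words occur more than once in the reference. Log2 fold changes were also below 0 in 221 of all 364 narrow peaks, 122 of the 179 intergenic ones and 18214 of 36097 peaks. No comparison of chromosomes was planned, and these 5 peaks do not set the Y chromosome apart.

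The narrow peak without a long run that came nearest to a call lies in an intron of Abi2, which encodes an adaptor of the actin-regulating WAVE complex, at chr1:60474241-60474572. It was singled out after its values were seen. Its levels were 7.94, 8.49 and 8.84 CPM in LacZ-shRNA and 4.17, 4.72 and 3.97 CPM in Yap-shRNA, with the groups apart, a log2 fold change of -0.97 (SE 0.29) and an edgeR adjusted p of 0.126. None of its 32-base words recurs in the genome, and its longest run of G or C is 3 bases.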
